A study of Rattus norvegicus with 4 samples.

Results

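The core circadian clock genes were followed in messenger RNA of rat cartilage. They are 10 genes chosen by symbol, out of 24005 genes in the deposited count table: the activators Arntl (now named Bmal1), Clock and Npas2, and the repressors Per1, Per2, Per3, Cry1, Cry2, Nr1d1 and Nr1d2. All 10 were found under these symbols, and all 10 passed the filter on low counts with 15282 genes in all, none with fewer than 101 counts in any library. The tissue came from male rats of the outbred Sprague Dawley strain, 8 to 12 weeks old, weighing 140 to 230 g and kept on 12 h of light and 12 h of dark. The control group held 2 libraries labelled healthy, and the osteoarthritis group 2 libraries labelled osteoarthritis. The series' title and design text say that osteoarthritis was induced with monosodium iodoacetate, a glycolysis inhibitor injected into a joint to damage its cartilage. Both osteoarthritis libraries also carry the treatment label XGS, which is Xiaogu San, a herbal preparation, so disease and preparation cannot be told apart. The design text calls the healthy animals mice, although all 4 libraries are labelled rat. The labels give no hour of tissue collection, so the time of day behind each library is unknown. They also do not say that libraries came from separate animals, and p-values then measure only how far these samples spread, which may be technical variation.

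The mammalian clock is a transcription loop that runs in nearly every tissue. BMAL1, the protein of Arntl, pairs with CLOCK or with its relative NPAS2, binds E-box sequences and switches on the Per, Cry and Nr1d genes. PER and CRY proteins then return to the nucleus and block that pair, while NR1D1 and NR1D2, also called REV-ERB alpha and beta, silence Arntl and Npas2 through elements that the ROR receptors activate. Transcripts of Arntl and Npas2 therefore peak at another time of day than those of Nr1d1 and the Per genes. Chondrocytes have such a clock, and loss of Bmal1 from them is known to damage mouse cartilage.

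The sequence elements of this loop can be read in 3 rat promoters, shown because their genes stand for the 2 arms of the loop: Per2 and Nr1d1 among the repressors and Arntl among the activators. Each is the 250 bases before the annotated start, 5′ to 3′ on the gene's strand, from RefSeq on assembly GRCr8, with motif matches in capitals. The Per2 window lies at chr9:99496994-99497243 on the minus strand and holds the D-box TTATGTAA and the E'-box CACGTT, 192 and 62 bases before the start. The Arntl window lies at chr1:176766078-176766327 on the plus strand and holds the ROR and REV-ERB element TAGGTCA, 16 bases before the start. The Nr1d1 window lies at chr10:84229455-84229704 on the minus strand, before the downstream start of its 2 annotated starts, and holds the E-box CACGTG, 191 bases before the start.
Per2: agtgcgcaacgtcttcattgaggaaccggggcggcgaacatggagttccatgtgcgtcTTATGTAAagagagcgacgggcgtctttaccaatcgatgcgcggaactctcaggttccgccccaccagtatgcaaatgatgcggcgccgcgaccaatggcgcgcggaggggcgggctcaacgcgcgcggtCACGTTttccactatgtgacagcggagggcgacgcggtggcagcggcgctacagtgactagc
Arntl: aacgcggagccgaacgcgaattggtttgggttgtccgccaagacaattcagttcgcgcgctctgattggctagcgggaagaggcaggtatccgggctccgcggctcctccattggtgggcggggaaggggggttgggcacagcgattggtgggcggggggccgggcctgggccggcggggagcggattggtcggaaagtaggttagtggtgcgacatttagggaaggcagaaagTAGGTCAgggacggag
Nr1d1: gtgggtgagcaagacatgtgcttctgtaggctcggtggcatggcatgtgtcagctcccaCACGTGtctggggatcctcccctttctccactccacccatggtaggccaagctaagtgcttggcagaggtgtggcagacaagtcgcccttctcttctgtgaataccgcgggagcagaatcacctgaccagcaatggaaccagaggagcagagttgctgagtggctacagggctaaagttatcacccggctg

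The motifs searched, on both strands, were the E-box CACGTG, the E'-box CACGTT, the D-box TTANGTAA, the ROR and REV-ERB element as TAGGTCA or TGGGTCA, and the cAMP response element TGACGTCA. No motif contains another. The search covered the whole 300-base windows, from 250 bases before to 50 after the start, of the 9 members with an entry. There were 11 such windows, and Cry1 had none. Besides the matches above, Cry2 held an E'-box 212 bases before its start and the other Nr1d1 start an E'-box 174 bases before it. The windows of Clock, Npas2, Per1, Per3 and Nr1d2 held none of the 5 motifs. Over all 33469 promoter windows of the table, 6.42% held the E-box, 4.83% the E'-box, 2.24% the D-box, 6.6% the ROR and REV-ERB element and 1.83% the cAMP response element. A match describes these letters only, and no binding was measured.

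The libraries had 24492412 to 28270779 counts each. Col2a1, the main collagen of cartilage, was abundant in control, at 13919 and 26813 CPM (counts scaled to a fixed library size, here after TMM scaling), and lower in osteoarthritis, at 3431 and 385 CPM. The chondrocyte list as a whole was mixed: of 9 tested genes 4 lay below both controls, 0 above and 5 overlapped, and 3 had a positive log2 fold change. Its median against the control mean was -2.49 in osteoarthritis replicate 1 and 0.32 in replicate 2. Acan, which encodes aggrecan, was at 493 and 587 CPM in control, against 70.9 and 2703 CPM in osteoarthritis. Marrow and bone markers were high in the controls: the summed level of 9 erythroid genes was 97700 and 106100 CPM in control, against 1359 and 4879 CPM in osteoarthritis. The osteoarthritis libraries differed from each other in fat and tendon markers: 10 adipocyte genes summed to 8814 CPM in replicate 1 and 81.3 CPM in replicate 2, and 8 tendon and ligament genes to 680 and 13440 CPM. The controls also differed from each other. In them 11 skeletal muscle genes summed to 2730 CPM in replicate 1 and 163 CPM in replicate 2, against 361 and 502 CPM in osteoarthritis. The 8 osteoblast and osteocyte genes summed to 936 and 4395 CPM in control, against 49.4 and 77.9 CPM in osteoarthritis. In bulk tissue, fewer cells of a type and less RNA per cell cannot be told apart.

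All 7 repressors had a positive fitted change in osteoarthritis over control, as had 55.1% of all genes tested. Of the 3 activators, Arntl and Npas2 had a negative change, as had 44.9% of all genes. Per2 had the largest at 16.2-fold, followed by Per3 at 6.13-fold and Per1 at 5.92-fold. After Benjamini-Hochberg adjustment over all genes, edgeR's quasi-likelihood test called 0 members, and 0 of the 15282 genes (0.00% called in each direction, smallest adjusted p = 0.0824). In 6 of the 10 members both osteoarthritis libraries lay above both controls, where 30.0% of all tested genes did so. In 2 of the 10 both lay below, where 26.5% of all genes did. At an unadjusted p under 0.05 edgeR had 6 members higher and 0 lower, beside 12.2% and 11.2% of all genes. No exact permutation test was run, because 2 samples against 2 give a two-sided p of 0.333 at best. The median log2 fold change was 1.18 over the 10 members, -1.08 over the activators and 1.71 over the repressors, beside 0.15 over all genes tested.

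The number of members called moved with the test and with the libraries. When 1 library was left out, the spread came only from the group that kept both of its libraries. Without an osteoarthritis replicate it was thus the spread of the controls alone. DESeq2 called 5 members higher, Clock, Per1, Per2, Per3 and Nr1d2, and 0 lower, beside 7.24% and 8.26% of all genes. EdgeR's likelihood ratio test called 5 higher and 0 lower, beside 6.31% and 6.40%. Limma-voom called 0 and 0 (0.00% in each direction), with 6 members higher and 0 lower at an unadjusted p under 0.05, beside 10.7% and 10.9% of all genes. With osteoarthritis replicate 1 left out, the quasi-likelihood test called 5 members higher and 0 lower, beside 8.16% and 6.95% of all genes. Without osteoarthritis replicate 2 it called 4 higher, Per1, Per2, Per3 and Nr1d2, and 1 lower, Npas2, beside 4.88% and 5.73%. Without control replicate 1 it called 0 (0.00%), with 4 members higher and 0 lower at an unadjusted p under 0.05, beside 6.48% and 7.95% of all genes. Without control replicate 2 it also called 0 (0.00%), again with 4 higher and 0 lower at that threshold, beside 7.89% and 6.03%.

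Among the activators, Arntl encodes BMAL1, the partner without which the loop does not run. Arntl stood at 11.8 and 14.5 CPM in the controls, against 3.53 and 7.82 CPM in osteoarthritis. Both osteoarthritis values lay below both controls, and the lower control was 1.51 times the higher osteoarthritis value. The fitted log2 fold change was -1.21 ± 0.61 (SE; adjusted p = 0.303), -1.88 without osteoarthritis replicate 2 and -0.78 without osteoarthritis replicate 1. These are low counts, 335 and 377 reads in control and 104 and 181 in osteoarthritis. Npas2, which can take the place of CLOCK, had 23.5 and 15.6 CPM in control, against 3.43 and 15.2 CPM in osteoarthritis. The groups were apart by a narrow gap of 1.03-fold, since osteoarthritis replicate 2 was close to control replicate 2. Its log2 fold change was -1.08 ± 0.78 (adjusted p = 0.458), and it ranged from -2.50 without osteoarthritis replicate 2 to -0.39 without replicate 1.

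Clock, the constant partner of BMAL1 in most tissues, stood on the other side. Clock had 19.7 and 20.8 CPM in control, against 41.2 and 67.6 CPM in osteoarthritis, so that the lower osteoarthritis library was 1.98 times the higher control. The log2 fold change was 1.43 ± 0.37 (adjusted p = 0.129 by edgeR and 0.0287 by DESeq2). The 3 activators therefore did not lie on 1 side: Arntl and Npas2 were nearest to each other in their pattern over the 4 libraries, and Clock was nearest to the repressor Nr1d2. The root mean square distance of centred log2 CPM was 0.47 for the first pair and 0.16 for the second, against 2.69 for the 2 most distant members, Npas2 and Per2.

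**Figure D1:**
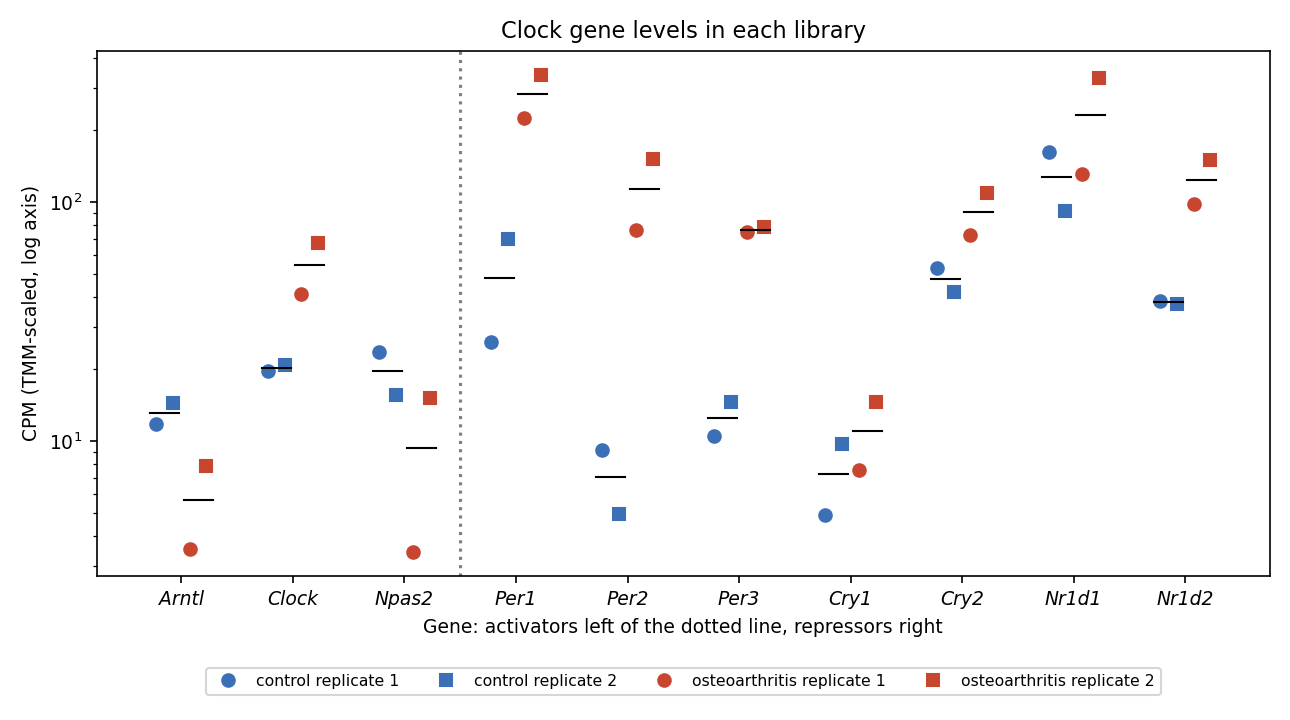
CPM of the 10 clock genes in each library on a log axis, with circles for replicate 1, squares for replicate 2 and black bars for the group means (n = 2). All 3 Per genes and Nr1d2 in osteoarthritis lie well above both controls, and Arntl below, while the groups of Cry1 and Nr1d1 overlap.

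The period genes, whose proteins carry the repression, showed the widest gaps. Per2 had 9.15 and 4.95 CPM in control, against 76.8 and 151 CPM in osteoarthritis. The control values rest on low counts, 260 and 129 reads. Its lower osteoarthritis value was 8.39 times its higher control value, the widest such gap among the members. The log2 fold change was 4.01 ± 0.56 (adjusted p = 0.0824 by edgeR and 7.37e-10 by DESeq2), the 364th largest of the 15282 genes, and it was 3.45 to 4.46 without each library in turn. Per3, a period protein that is dispensable for the loop itself, had similar TMM-scaled levels in the osteoarthritis replicates. Per3 stood at 10.5 and 14.5 CPM in control, against 74.8 and 78.5 CPM in osteoarthritis. The log2 fold change was 2.62 ± 0.35 (adjusted p = 0.0824 by edgeR and 4.73e-07 by DESeq2), and its unadjusted p was the 80th smallest of 15282. Per1, which also responds quickly to glucocorticoids and to cAMP signals, had 25.8 and 69.9 CPM in control, against 225 and 342 CPM in osteoarthritis. The 2 controls differed from each other by 1.44 on the log2 scale, the largest gap between controls among the 10 genes, yet both lay below both osteoarthritis libraries by 3.22-fold or more. Its log2 fold change was 2.57 ± 0.60 (adjusted p = 0.114 by edgeR and 0.000853 by DESeq2), 1.96 without control replicate 1 and 3.47 without control replicate 2.

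The cryptochromes, the partners of the period proteins in repression, differed less. Cry2 had 53.0 and 42.0 CPM in control, against 72.9 and 109 CPM in osteoarthritis. The groups were apart by 1.37-fold, and the log2 fold change was 0.93 ± 0.36 (adjusted p = 0.203). Cry1, the stronger repressor, had 4.89 and 9.67 CPM in control, against 7.53 and 14.5 CPM in osteoarthritis. These groups overlapped, since osteoarthritis replicate 1 lay between the controls. The log2 fold change was 0.60 ± 0.65 (adjusted p = 0.632), and it was 0.06 when osteoarthritis replicate 2 was left out and 1.18 when control replicate 2 was.

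The REV-ERB receptors, which repress Arntl, differed from each other in how their groups lay. Nr1d2 had 38.6 and 37.5 CPM in control, against 97.9 and 150 CPM in osteoarthritis, with the lower osteoarthritis value 2.54 times the higher control. Its log2 fold change was 1.71 ± 0.36 (adjusted p = 0.1 by edgeR and 0.0016 by DESeq2). Nr1d1 had 163 and 92.0 CPM in control, against 131 and 331 CPM in osteoarthritis. Its groups overlapped: osteoarthritis replicate 1 lay between the controls, at 1.03 times their mean, and replicate 2 stood at 2.6 times it. The log2 fold change was 0.86 ± 0.58 (adjusted p = 0.429), 0.05 without osteoarthritis replicate 2 and 1.36 without replicate 1. The higher fitted level of Nr1d1 thus rests on 1 library.

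Levels can be compared between genes only per length, for which the authors' FPKM values (reads scaled by gene length and library total) were used. In control Nr1d1 was the most abundant member at 53.6 ± 24.2 FPKM (SD, n = 2), followed by Cry2 at 11.7 ± 2.64, Per1 at 8.24 ± 4.95 and Nr1d2 at 7.98 ± 0.67 FPKM. The range of Per1 overlapped those of its neighbours in this order. Then came Arntl at 4.59 ± 0.37 and Npas2 at 4.30 ± 1.49 FPKM, which overlapped, and Per3 at 2.61 ± 0.44, Cry1 at 2.53 ± 1.03 and Clock at 2.04 ± 0.05 FPKM, of which each overlapped the next. Per2 was the least abundant at 1.16 ± 0.56 FPKM. In osteoarthritis Nr1d1 was again first at 97.2 ± 41.8 FPKM, but Per1 was second at 52.4 ± 4.33, before Nr1d2 at 27.3 ± 2.45 and Cry2 at 23.3 ± 1.64 FPKM. Next came Per2 at 19.1 ± 5.03 FPKM and Per3 at 17.4 ± 3.10, and their ranges overlapped each other, as did those of Cry2 and Per2. Clock at 5.74 ± 0.78 and Cry1 at 4.01 ± 0.996 FPKM followed. Arntl at 2.04 ± 0.70 and Npas2 at 1.99 ± 1.49 FPKM, which overlapped, were the least abundant. Summed over the 3 Per genes, the level was 8.6 and 15.4 FPKM in the controls and 84.5 and 93.3 FPKM in osteoarthritis. Summed over the activators it was 11.8 and 10.1 against 7.66 and 11.9 FPKM, which overlapped.

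Differences between 2 genes within a library do not depend on how libraries are scaled. Of the 7 pairs compared, 5 had groups that did not overlap, and 3 of these had the groups on either side of 0. The side of 0 depends on the gene lengths behind the FPKM values, whose annotation is not given. The shift between groups does not. The share of such pairs among all genes was not computed, so these counts have no background. Single genes had groups apart in 30.0% of cases above and 26.5% below. Pairs that share Arntl are not separate observations. Arntl exceeded Per2 in the controls, by 1.48 and 2.66 in log2 FPKM, and lay below it in osteoarthritis, at -3.33 and -3.16. The difference of Arntl and Per3 was 0.91 and 0.73 in control and -3.67 and -2.59 in osteoarthritis. That of Clock and Npas2 turned the other way, from -1.37 and -0.69 in control to 2.48 and 1.05 in osteoarthritis. By FPKM, Npas2 was thus the more abundant of these 2 related partners of BMAL1 in the controls, and Clock in osteoarthritis. The order in control rests on lengths of 9560 bases for Clock and 4439 for Npas2. In reads, the controls had 559 and 542 for Clock, against 669 and 407 for Npas2. For Arntl against its repressor Nr1d1 the difference was -4.03 and -2.91 in control and -5.45 and -5.65 in osteoarthritis. Here the osteoarthritis libraries lay close together. Both genes were higher in replicate 2 than in replicate 1, Arntl by 1.15 and Nr1d1 by 1.34 in TMM-scaled log2 CPM. Nr1d1 exceeded Nr1d2 by 3.06 and 2.28 in control and by 1.40 and 2.13 in osteoarthritis. The groups overlapped for Cry1 against Cry2, at -2.91 and -1.59 in control and -2.74 and -2.38 in osteoarthritis. They also overlapped for Per1 against Per2, at 1.61 and 3.93 in control and 1.66 and 1.29 in osteoarthritis. These are values with no test.

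**Figure D2:**
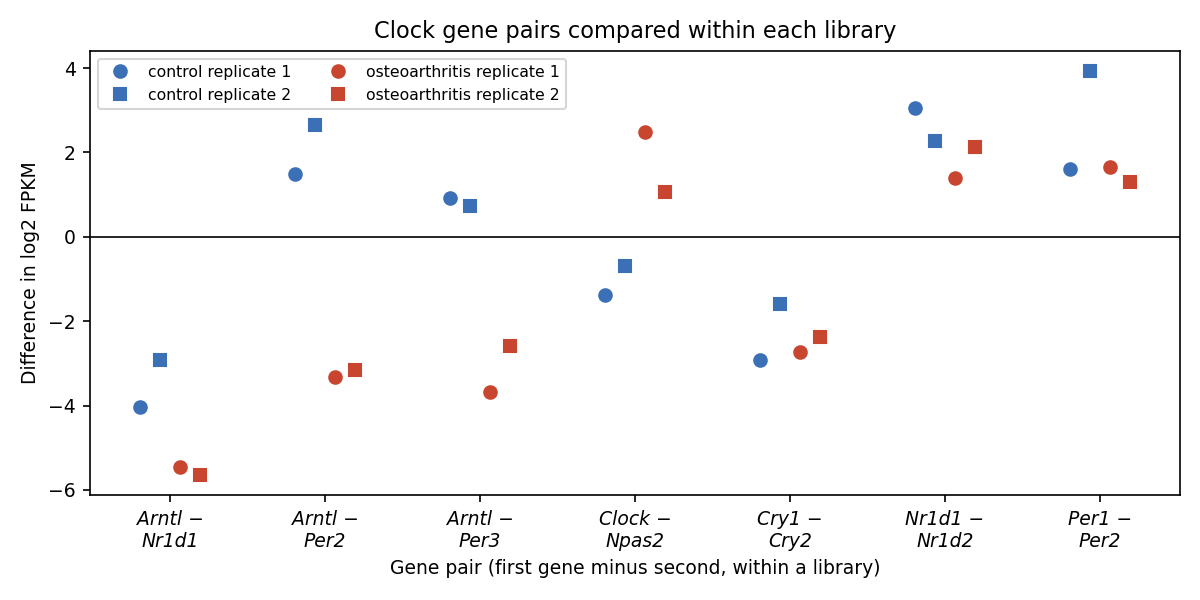
Difference in log2 FPKM between 2 clock genes within each library, for 7 pairs. Arntl lies above Per2 and Per3 in both controls and below them in both osteoarthritis libraries, and Clock against Npas2 shows the reverse order.

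Other genes of the pathway were taken from 3 lists. The first holds 10 output factors, genes whose transcripts the clock is known to drive, most of them transcription factors. The log2 fold change was positive for all 10, with TMM and with the 3 other scalings, and its median was 1.74, and 7 lay above both controls and 0 below (beside the 30.0% and 26.5% of all genes above). EdgeR called 0 of them, with 6 higher and 0 lower at an unadjusted p under 0.05, beside 12.2% and 11.2% of all genes. DESeq2 called 6 higher and 0 lower, beside 7.24% and 8.26% of all genes. Dbp, a D-box activator and direct target of BMAL1, had 118 and 54.1 CPM in control, against 248 and 395 CPM in osteoarthritis (log2 fold change 1.90 ± 0.53, adjusted p = 0.140). Hlf, a relative of Dbp, had 2.57 and 1.30 CPM in control, against 21.1 and 40.1 CPM in osteoarthritis (3.97 ± 0.63, adjusted p = 0.0835). Usp2, a deubiquitinating enzyme whose transcript cycles in many tissues, had 4.998 and 9.09 CPM in control, against 24.2 and 36.9 CPM in osteoarthritis (2.12 ± 0.50, adjusted p = 0.115). These 3 stood, like the Per genes, higher in both osteoarthritis libraries. Nfil3, the D-box repressor, had overlapping groups, with 15.3 and 16.9 CPM in control, against 12.9 and 26.7 CPM in osteoarthritis; it was named after its value was seen.

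The accessory loop list holds the ROR receptors, Arntl2 and the partners Timeless and Tipin. Of its 6 genes 5 were tested, with 2 above both controls and 2 below both (beside 30.0% and 26.5% of all genes). The median log2 fold change, 1.19, was that of Rorb, at 0.70 and 0 CPM in control, against 1.49 and 0.13 CPM in osteoarthritis. Arntl2, among the 2 above, had 0 CPM in both controls, against 0.64 and 1.34 CPM. The list's median against the control mean was 1.22 in osteoarthritis replicate 1 and -0.36 in replicate 2. EdgeR called 0, with 2 higher and 1 lower at an unadjusted p under 0.05, beside 12.2% and 11.2% of all genes. DESeq2 called 1 higher and 0 lower, beside 7.24% and 8.26%. Rora, which activates Arntl through the element that REV-ERB receptors block, had 18.2 and 20.4 CPM in control, against 45.1 and 87.5 CPM in osteoarthritis (log2 fold change 1.78 ± 0.43, adjusted p = 0.116). Timeless, which in mammals also serves DNA replication, had 28.2 and 30.0 CPM in control, against 15.8 and 15.6 CPM in osteoarthritis (-0.89 ± 0.34, adjusted p = 0.203). Tipin, its partner there, was at 18.2 and 18.7 CPM in control, against 11.2 and 8.30 CPM in osteoarthritis. All 8 markers of dividing cells were lower in both osteoarthritis libraries as well, with a median of -2.18, and their part in these values was not tested.

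The third list holds 30 kinases, ligases, phosphatases and cofactors that act on clock proteins. Its median log2 fold change was 0.19, close to the 0.15 of all genes. In this list 13 lay above both controls and 6 below both (beside 30.0% and 26.5% of all genes). EdgeR called 0, with 3 higher and 2 lower at an unadjusted p under 0.05, beside 12.2% and 11.2% of all genes. DESeq2 called 2 higher and 1 lower, beside 7.24% and 8.26% of all genes. Crebbp, a histone acetyltransferase and coactivator, had 36.1 and 36.6 CPM in control, against 120 and 136 CPM in osteoarthritis (log2 fold change 1.82 ± 0.31). Ncor1, the corepressor through which REV-ERB receptors act, had 53.9 and 74.4 CPM in control, against 308 and 198 CPM in osteoarthritis (1.98 ± 0.41). Nampt, which makes NAD and is a clock target, had a log2 fold change of 1.56 ± 0.55. On the lower side were Rack1, a scaffold protein that also sits on ribosomes, at -1.30 ± 0.46, Csnk2b, the regulatory subunit of casein kinase 2, at -1.11 ± 0.39, and Btrc, a ligase that targets PER proteins, at -0.58 ± 0.33. Csnk1d, a kinase of the PER proteins, had overlapping groups, at 118 and 103 CPM in control, against 97.5 and 129 CPM in osteoarthritis, named after its values were seen.

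**Figure D3:**
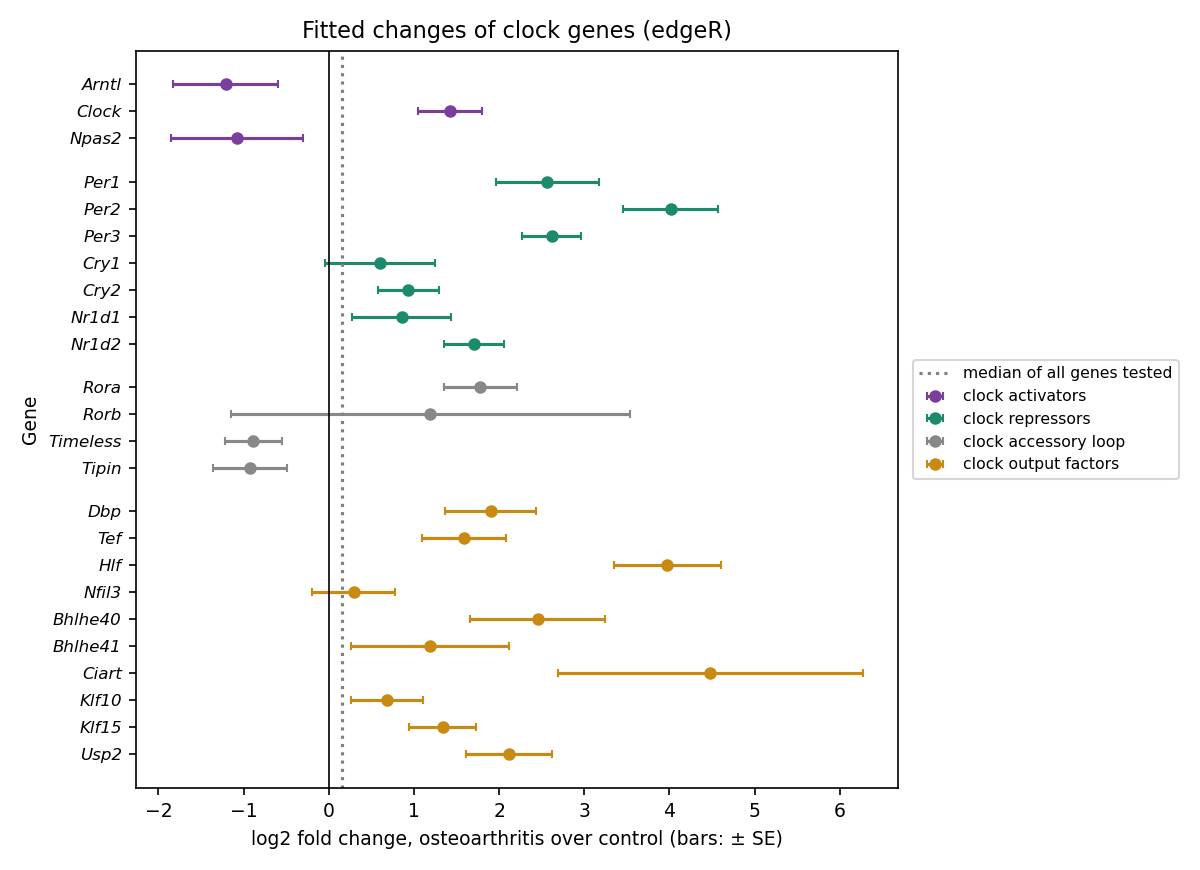
Fitted log2 fold changes of the clock genes, osteoarthritis over control, with SE bars (edgeR, n = 2 per group), by list. Repressors and output factors lie right of 0, Arntl and Npas2 left of it, and Arntl2, at 0 counts in both controls, is not drawn.

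The members also differed between the 2 osteoarthritis libraries. All 10 had a higher CPM in replicate 2 than in replicate 1, with a median log2 difference of 0.82, where 51.4% of all tested genes were higher and the median was 0.03. With RLE factors the count was 10 as well, and with upper quartile factors or library size alone it was 9, with Per3 lower in replicate 2. With library size alone the members' median was 0.39, that of all genes -0.38, and 32% of all genes were higher in replicate 2. With TMM scaling the difference ran from 0.07 for Per3 to 2.15 for Npas2. Between the controls 5 of the 10 were higher in replicate 2. The 2 libraries were unlike in the adipocyte and tendon lists too, whose medians against the control mean were 3.78 and -1.79 in replicate 1 and -4.49 and 2.63 in replicate 2. The median of the repressors was 1.36 and 1.98, and that of the activators -1.82 and -0.33. Adipoq, a fat cell hormone, was at 949 CPM in replicate 1 and 0.43 CPM in replicate 2. The part of fat and tendon RNA in the levels of the clock genes was not tested.

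Markers of other cells and states were counted in the same way, to be read beside the 30.0% of all genes above both controls and the 26.5% below. Erythroid (9 of 9), neutrophil (8 of 8) and B cell (8 of 8) genes lay below both controls in both osteoarthritis libraries, as did 7 of 8 osteoblast and osteocyte genes. Among vessel wall genes, 5 of 8 smooth muscle and pericyte markers lay above both controls, with summed levels of 2619 and 1112 CPM in control, against 5103 and 3294 CPM in osteoarthritis. Endothelial markers had 3 of 8 above, near that share, with sums of 941 and 434 against 1409 and 876 CPM, which overlapped. Of 10 glucocorticoid-responsive genes 6 lay above both controls and 0 below, with sums of 1040 and 960 against 2556 and 2810 CPM. The median log2 fold change of this list was 0.93, with 8 genes positive and 2 negative. Fkbp5 had 41.5 and 73.1 CPM in control, against 137 and 82.9 CPM in osteoarthritis. Tsc22d3, a glucocorticoid-induced leucine zipper protein, had 53.0 and 91.5 CPM in control, against 281 and 294 CPM in osteoarthritis. Of 10 immediate early genes 4 lay above both and 1 below, with 5 overlapping and a median log2 fold change of 0.48. The part of these cells and signals in the levels of the clock genes was not tested.

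**Figure D4:**
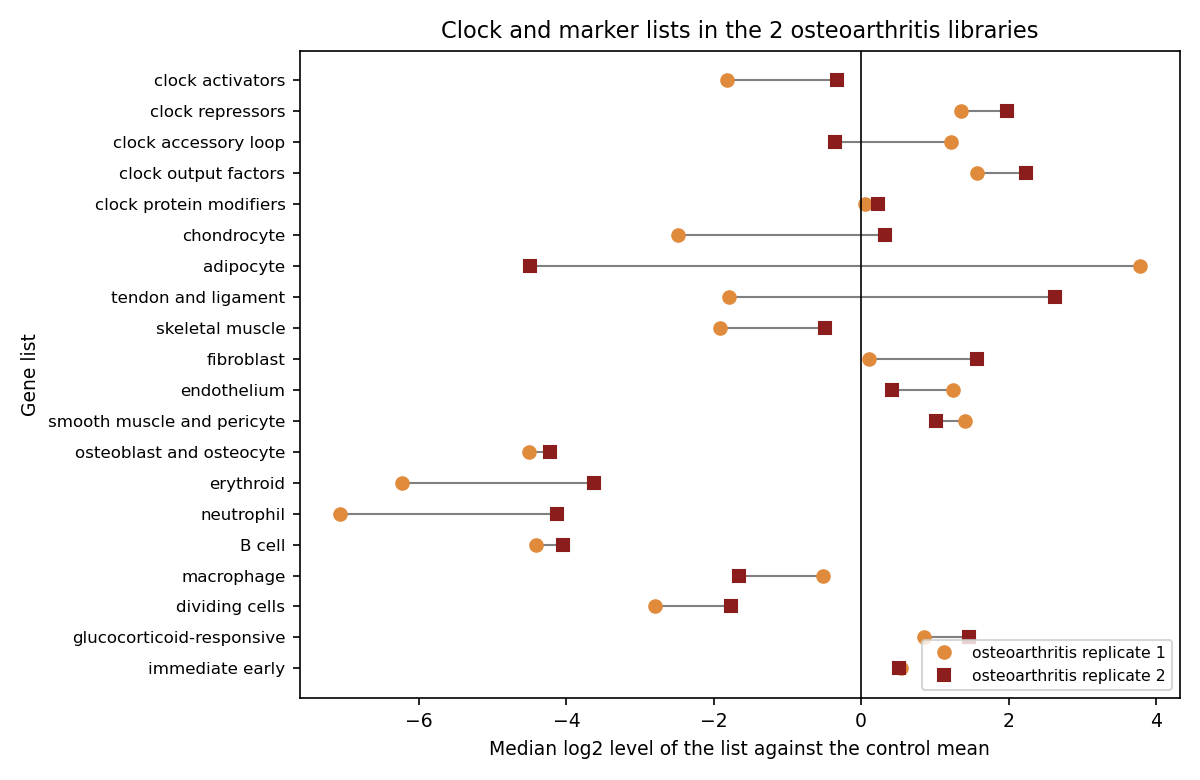
Median log2 level of each gene list against the control mean in osteoarthritis replicate 1 (circles) and replicate 2 (squares). The clock repressors and output factors lie to the right of 0 in both libraries. So do the clock protein modifier, fibroblast, endothelium, smooth muscle and pericyte, glucocorticoid-responsive and immediate early lists. The adipocyte list spans from 3.78 to -4.49.

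The median pattern of the 10 members over the 4 libraries was compared with those of 11352 other genes with a mean of at least 5 CPM. The nearest by root mean square distance of centred log2 CPM were Tmem184b (0.04), Dab2 (0.04), Tbc1d2b (0.05), Tmem68 (0.06) and Adam9 (0.06). Dab2, an endocytic adaptor, had 78.2 and 83.7 CPM in control, against 161 and 286 CPM in osteoarthritis. None of these 5 was in the clock lists, and the likeness is over 4 libraries.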

How the data were processed

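Messenger RNA of 4 cartilage libraries was analysed, 2 labelled healthy and 2 labelled osteoarthritis, grouped by their disease state label. The authors deposited raw read counts per gene and FPKM values. Per the submitters' processing notes, fastp, TopHat and the build hg38, a human build, were named, although the gene symbols are those of rat. The sources used here do not give the counter, the annotation or the strandedness. Without strand, reads from a gene and from an overlapping one cannot be separated. The 67506 deposited FPKM values above 0 follow from the counts, a length per gene and the column totals, so they are no separate measurement.

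Counts were tested with edgeR 4.0.16 in R 4.3.3: filterByExpr, TMM scaling and the two-sided quasi-likelihood F test over 15282 genes, Benjamini-Hochberg adjustment, threshold 0.05. The SE is the fold change over the root of F. Alternatives were DESeq2 1.42.0, limma 3.58.1 (voom, and trend on log2 of FPKM plus 1 or plus 0.1), the likelihood ratio test, other scalings and filters, and fits without each library, in which the variance of a lone sample is taken from the other group. An offset of 0.25 CPM was used for list medians and patterns. Depth was 24492412 to 28270779 counts per library. The scripts were tested on simulated data. Motifs were matched as letters in RefSeq promoter windows of GRCr8, where 9 members matched by symbol and Arntl as a synonym of Bmal1. The members, lists and tests were chosen with earlier results of these data known. Named genes were all members, up to 3 per direction in each other clock list by smallest unadjusted p with a mean of at least 1 CPM, the first 2 detected genes of each marker list, which the text gives in part, and the 5 nearest genes by pattern. Figures were drawn with matplotlib 3.10.9.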

Additional observations from a re-analysis of the deposited data

How the results depend on the processing

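No paired analysis was possible because the labels name no pairing between groups. The replicate numbers used here only tell apart the libraries within a group. The direction of each of the 10 members was the same in all 14 alternatives. These use the same 4 libraries or a part of them, so they are not separate evidence. Where the groups are apart, leaving out a library cannot be expected to reverse a direction. Without osteoarthritis replicate 2 the log2 fold changes of Cry1 and Nr1d1 were only 0.06 and 0.05. The number of genes called by edgeR's quasi-likelihood test, 0 higher and 0 lower, became 965 and 978 with the likelihood ratio test, 1107 and 1262 with DESeq2 and 677 and 751 with no filter on low counts. The number of members called higher, 0, became 5 with the likelihood ratio test, beside 6.31% of all genes. It became 5 with DESeq2, beside 7.24%, and 4 with no filter, where no share was computed. Leaving out 1 library gave 0 to 1297 genes higher and 0 to 1105 lower, and 0 to 5 members higher and 0 to 1 lower. With 1 library left out the median log2 fold change was 0.83 to 1.53 over the members. It was -1.88 to -0.39 over the activators and 1.37 to 1.95 over the repressors. Why calls differed between tests was not tested. The scaling moved the median of all genes from 0.05 (upper quartile) to 0.27 (library size alone). Members with the groups apart were 6 or 7 higher and 2 lower with the other scalings. When 1 library was left out they were 6 to 8 higher and 2 lower. Leaving out a library cannot lower such a count, so this does not test how stable it is. The share of all genes with the groups apart was not computed for the other scalings or with 1 library left out. Depth was low for Arntl, Npas2, Per2 and Cry1, with lowest counts of 104, 101, 129 and 139 in a library. For Per2 the low counts were those of the controls.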
